A study of Homo sapiens with 4 samples.

Results

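GCT44 is an established human testicular germ cell tumour line derived from a yolk sac tumour, and its RNA profile was set against those of 3 other lines. It accounted for 1 of the 4 arrays of the series. The other lines were TCam-2, from a seminoma, GCT27, from an embryonal carcinoma, and NT2D1, which is labelled teratoma and came from a lung metastasis of a testicular tumour. NT2D1 commonly serves as a model of pluripotent embryonal carcinoma cells, and its label should not be read as differentiated teratoma tissue. All 4 lines were grown with 10% fetal bovine serum and antibiotics. GCT44, NT2D1 and GCT27 were kept in Dulbecco's medium and TCam-2 in RPMI, so medium and line cannot be told apart wherever TCam-2 is the line that differs. Total RNA of each line was hybridized to 1 Affymetrix array, and no line has a replicate. Differences between lines are therefore given as sizes with no test, and their precision is limited by the number of arrays. Each line is 1 culture of 1 tumour, and a difference between GCT44 and the rest need not hold for yolk sac tumours in general.

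Each gene was read from 1 probe set, a group of short probes against 1 transcript. Of 19775 genes with a probe set of their own, 14926 reached the median of all values, 76.4 intensity units, in at least 1 line and were compared. Lower values were set to 76.4 for fold differences, because dim signals on such arrays have no reliable order, and 76.4 is called the floor here. A gene was counted as higher or lower in GCT44 when it lay at least 4-fold (2 on the log2 scale) beyond the nearest of the other 3 lines. A fold that starts from the floor is a lower bound and is written as "at least". A gene dim in the other 3 lines entered the comparison only because GCT44 was bright, so counts and medians over gene lists describe these arrays and do not test a list.

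The yolk sac lies outside the embryo and is lined by endoderm that takes over tasks of the later liver. Visceral endoderm secretes apolipoproteins, transport proteins and clotting factors under the control of FOXA, GATA and HNF factors. Yolk sac tumours are germ cell tumours that resemble this tissue, and alpha-fetoprotein in serum is their best known clinical marker. Seminoma and embryonal carcinoma instead keep the pluripotency programme of early germ cells and of the epiblast.

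The label was checked against 3 markers of the endoderm and mesendoderm. APOA2, an apolipoprotein of high-density lipoprotein, measured 89.2, 20.6, 66.6 and 30689 units in TCam-2, NT2D1, GCT27 and GCT44. FOXA2, a pioneer factor of the endoderm, measured 259, 2.83, 4.77 and 6631 units in the same order. EOMES, a T-box factor of the primitive streak and early endoderm, measured 130, 238, 1876 and 26237 units. All 3 markers were highest in GCT44, 344-fold, 25.6-fold and 13.99-fold above the nearest line. AFP was low in comparison with the label: it measured 66.9, 126 and 85.4 units in TCam-2, NT2D1 and GCT27 and 372 in GCT44, 2.95-fold above NT2D1. ALB was 118 units in GCT44 and under the floor elsewhere. GPC3, a membrane proteoglycan used in the diagnosis of yolk sac tumour, was higher in NT2D1 (2578 units) and GCT27 (1019) than in GCT44 (740). The first 3 genes were given as markers of GCT44 with these data known, so their levels describe the line and do not test its label. GPC3 was not highest in GCT44, and AFP missed the 4-fold rule.

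The deposited values had been scaled to a common trimmed mean of 500.1 units, so like brightness of the arrays was set by the processing. Their medians ran from 73.6 to 79.3 units, and 49.2% to 50.9% of probe sets reached the floor. The controls set GCT44 somewhat apart. The unspiked controls had a median of 23.1 units in GCT44 and of 10.7 to 14.1 in the other lines. The spiked-in hybridization controls of GCT44 exceeded the average of the 4 arrays by 0.29 (log2), against -0.26 to -0.01 in the other lines. The ratio of the 3' to the 5' probe set of ACTB, a measure of RNA integrity and labelling, was 4.21 in GCT44 and 2.49 to 2.97 elsewhere, while that of GAPDH was 1.04 in GCT44 and 0.898 to 1.09 elsewhere. The part of these offsets in the differences below was not tested. Scaling the arrays to the spiked-in controls moved the median difference of all genes from -0.04 to -0.30 and gave 181 higher and 305 lower genes, so differences are best read relative to that shift.

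GCT44 stood above all other lines for 253 genes (1.70% of those compared) and below all of them for 252 (1.69%, or 3.60% of the 6994 genes whose other lines were all bright enough to show a 4-fold fall). A 16-fold distance was reached by 47 higher and 52 lower genes. The median fold was 6.79 for the higher and 7.12 for the lower genes. Of the lower genes, 167 (66.3%) were at or under the floor in GCT44, so their folds are lower bounds. The floor is not a detection limit: in GCT44 the lower genes had a median of 50.1 units and the unspiked controls 23.1. Whether a gene under the floor was detected was not tested. Of the higher genes, 82 (32.4%) were at the floor in the other 3 lines. Just inside the threshold stood TMEM263, 4.01-fold higher, and B4GALT5, 4.01-fold lower. SLC25A53 and RPRM lay just outside it, at 3.998-fold and 3.996-fold. The split depended on how a gene was read: with the median over all probe sets of a gene it was 198 higher and 135 lower, and with a floor at the unspiked controls (18.4 units) 344 higher and 512 lower.

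**Figure D1:**
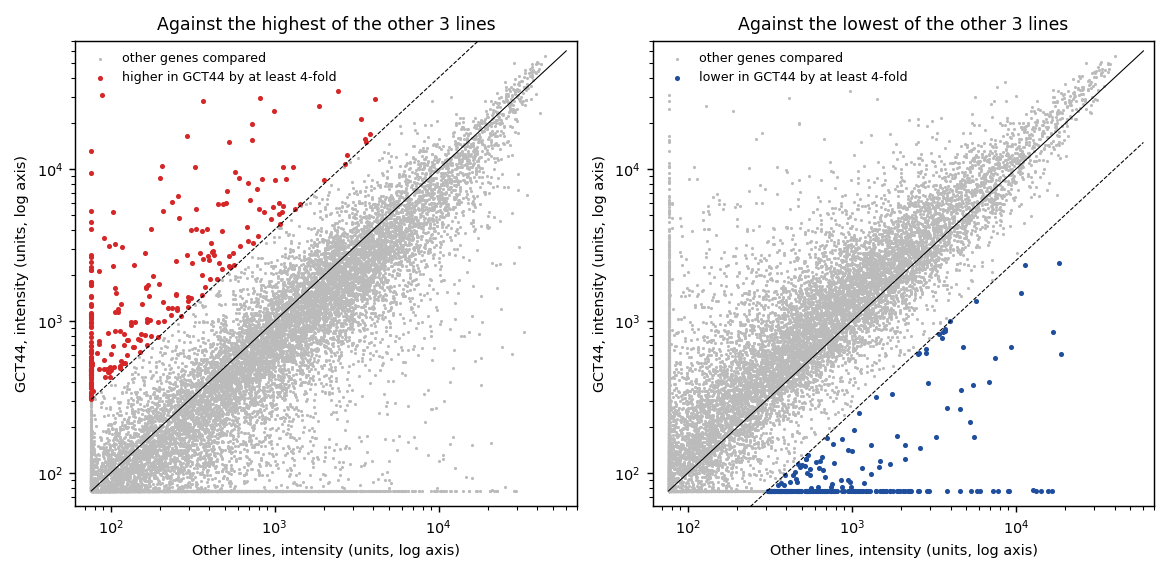
Level of each compared gene in GCT44 (vertical, intensity units, log axis) against the highest of the other 3 lines (left) and the lowest of them (right), 1 array per line. The solid line marks equality and the dashed line 4-fold; the 253 genes above the dashed line on the left and the 252 below it on the right are coloured, and the points that line up at the edges are at the floor of 76.4 units.

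Set against the other lines 1 at a time, GCT44 was at least 4-fold higher for 654 genes (4.38%) and lower for 851 (5.70%) than TCam-2. The counts were 563 (3.77%) and 710 (4.76%) against NT2D1, and 620 (4.15%) and 791 (5.30%) against GCT27. In total 1505 genes separated GCT44 from TCam-2, 1411 from GCT27 and 1273 from NT2D1. This order depended on the scaling: with arrays scaled to the spiked-in controls, 405 genes were higher and 1242 lower than in GCT27, 511 and 1009 than in TCam-2, and 416 and 835 than in NT2D1. The pairs without GCT44 differed at 697 genes (NT2D1 and GCT27), 1100 (TCam-2 and GCT27) and 1233 (TCam-2 and NT2D1). These comparisons share the GCT44 array and are not independent of each other.

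**Figure D2:**
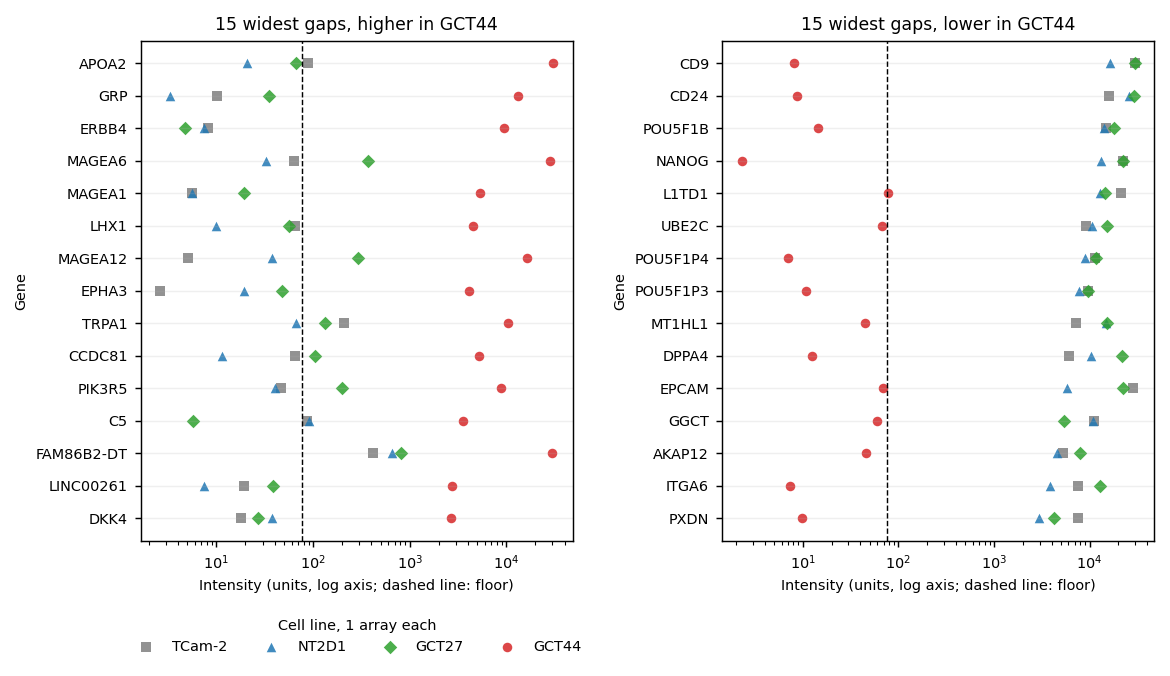
Intensity (units, log axis) in each of the 4 lines, 1 array each, for the 15 genes farthest above and the 15 farthest below the other lines in GCT44. The dashed line is the floor of 76.4 units; the genes on the left reach from 2660 units (DKK4) to 30689 (APOA2) in GCT44, while of those on the right all but L1TD1, at 77.5 units, are under the floor there.

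The gene lists below are described by how many compared members passed the rule, to be read against 1.70% higher and 1.69% lower over all compared genes. Secreted proteins of yolk sac and liver included 7 genes higher in GCT44. Of 28 listed plasma proteins 24 were compared and none was lower, although only 2 were 4-fold above the floor in every other line, without which no such fall can be measured; the median log2 difference between GCT44 and the average of the others was 1.32, against -0.04 over all genes, and 2.41 with no floor. The 7 were APOA1, APOA2, APOC3, APOM, TTR, FGG and F10. APOA1, the main protein of high-density lipoprotein, measured 49.2, 118, 35.8 and 3067 units in TCam-2, NT2D1, GCT27 and GCT44, a 26.0-fold distance. Its second bright probe set agreed, with a gap of 5.32 on the log2 scale, but both match several transcripts. A probe set specific to the gene gave 0.94, but at 147 units in GCT44 it was too dim to show a 4-fold distance. APOC3, an inhibitor of lipoprotein lipase, was under the floor in the other lines and 316 units in GCT44, at least 4.14-fold higher, and its gap was 1.76 on the log2 scale when arrays were scaled to the spiked-in controls. APOM, a carrier of sphingosine-1-phosphate, was 114 to 168 units in the other lines and 1725 in GCT44. TTR, which transports thyroxine and retinol-binding protein, was under the floor in the other lines and 478 units in GCT44.

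Some clotting and complement factors were bright in GCT44 too. FGG, the gamma chain of fibrinogen, measured 8.98, 6.93, 6.81 and 1771 units in the same order of lines, at least 23.2-fold higher. F10, coagulation factor X, was under the floor in the other lines (6.02 to 68.3 units) and 1099 units in GCT44. F7, the partner of tissue factor, was 469 units against 64.6 to 74.7, although with the median over its probe sets the gap shrank to 0.24 on the log2 scale. The other probe set of F7 was under the floor in every line, at 10.8 to 17.4 units. In a list of clotting factors grouped after the values were seen, these 3 were the members past the rule among 14 compared. C5, the complement component from which the membrane attack complex starts, measured 86.9, 91.6, 5.66 and 3540 units, 38.7-fold above NT2D1. Not every hepatic protein followed: TF measured 30.4, 104, 102 and 115 units, and RBP4 stayed at 57.6 units in GCT44, under the floor.

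Of the transcription factors of the endoderm, 6 were higher in GCT44, 1 was lower and 9 were neither. These were the 16 compared of 22 listed, against 1.70% higher over all genes. Their median difference was 1.87, or 0.44 with no filter on low values, which brings in members dim in all lines. Besides FOXA2, these were FOXA3, GATA6, HNF4G, ONECUT2 and PROX1. FOXA3, a liver-enriched relative of FOXA2, measured 29.2, 87.8, 250 and 2506 units. GATA6, which drives primitive endoderm, measured 780, 53.2, 13.7 and 7451 units. TCam-2 thus carried a measurable GATA6 signal, 9.55-fold below GCT44. With the median over probe sets the gap of GATA6 was 1.94 and that of PROX1 1.64, just short of the rule. HNF4G was 484 units against at most 46.4, ONECUT2 699 against at most 166 and PROX1 619 against at most 82.4. The gap of ONECUT2 was 1.53 after scaling to the spiked-in controls. SOX7 was the member lower in GCT44, at 5.32 units against 377 to 926, with a gap of 1.05 when its probe sets were combined. SOX17, a relative of SOX7 and a seminoma marker, was bright in TCam-2 (3819 units) and under the floor in NT2D1, GCT27 and GCT44. GATA4 was 104 units in GCT44 and under the floor elsewhere. HHEX, at 118 units in GCT44, lay between its values in the other lines.

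FOXA2 did not stand alone on chromosome 20. LINC00261, a long non-coding RNA transcribed beside it, and NKX2-2, a homeobox factor, were higher too. These genes follow each other in the order of compared genes. Genes that were not compared may lie between members of this and the other runs. LINC00261 measured 19.5, 7.49, 38.5 and 2743 units, at least 35.9-fold higher, and NKX2-2 was 636 units against at most 7.52. GATA6 and its divergent transcript GATA6-AS1 (77.6, 77.3, 49.2 and 533 units) made another such pair on chromosome 18. Other adjacent pairs higher in GCT44 were APOC3 and APOA1 on chromosome 11, F7 and F10 on chromosome 13, and MAOA and MAOB on the X chromosome. In all, 29 of 253 higher genes lay in 14 runs of adjacent compared genes, and 27 of 246 lower genes with a printed position lay in 12 runs. The search for neighbours was made after values had been seen.

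The promoters of APOA2 and LINC00261 are shown because both genes were at least 30-fold above every other line and both hold the core letters of a forkhead motif, TGTTTAC, on the reverse strand. Each run is the 250 bases before the annotated start, from RefSeq on GRCh38.p14, 5' to 3' on the strand of the gene, with the motif in capitals. The APOA2 window is chr1:161223629-161223878 on the minus strand, with the motif 42 to 36 bases before the start. The LINC00261 window is chr20:22578643-22578892 on the minus strand, with the motif 237 to 231 bases before the start.
APOA2: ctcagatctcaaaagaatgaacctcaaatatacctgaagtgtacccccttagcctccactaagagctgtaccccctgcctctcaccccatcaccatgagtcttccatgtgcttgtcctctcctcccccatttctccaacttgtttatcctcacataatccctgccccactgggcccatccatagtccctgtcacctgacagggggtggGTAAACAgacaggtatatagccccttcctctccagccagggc
LINC00261: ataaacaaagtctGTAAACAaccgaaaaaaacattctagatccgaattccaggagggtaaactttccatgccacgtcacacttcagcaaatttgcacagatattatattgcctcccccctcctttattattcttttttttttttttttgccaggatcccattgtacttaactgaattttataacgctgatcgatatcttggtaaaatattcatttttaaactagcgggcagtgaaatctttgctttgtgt
These letters were in 6 of 197 promoters of higher genes (3.05%), 4 of 171 of lower genes (2.34%), 240 of 11914 of all compared genes (2.01%) and 813 of all 27305 promoters (2.98%), searched on both strands. The other 4 higher genes with a match were CPN1, IGFBP6, SELENOP and ZAP70. A GATA core, AGATAAG, was in 5 promoters of higher and 4 of lower genes, 1.49% of those of compared genes and 2.33% of all. The T-box core AGGTGTGA was in 3 and 0, 0.588% of compared genes and 0.787% of all. CAAAGTCCA, bound by HNF4, was in none of either set, 0.260% of compared genes and 0.293% of all. A match describes letters in this window and not a bound site.

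Of 24 listed genes of the primitive streak and mesendoderm 18 were compared and 4 were higher, against 1.70% of all genes. None was lower, but only 1 member was 4-fold above the floor in every other line. The median difference was 1.39, against 0.54 without the filter on low values, 0.70 with the median over probe sets and 0.73 without probe sets that match several transcripts. LHX1, a LIM homeobox factor of the anterior visceral endoderm, node and later kidney, measured 64.6, 9.91, 56.0 and 4470 units in TCam-2, NT2D1, GCT27 and GCT44, at least 58.5-fold higher. It was the member past the rule among 11 compared genes of intermediate mesoderm and kidney, where PAX2 was 167 units in GCT44 and PAX8 349. For EOMES, described above, GCT27 was the next line in level. MSX1, a homeobox target of BMP signalling, measured 27.6, 225, 36.0 and 1220 units; its gap fell to 0.52 without probe sets that match several transcripts. DKK1 measured 59.1, 59.4, 197 and 1757 units. TBXT, the classic streak factor, was under the floor in GCT44 (23.7 units) and 144 to 276 in the other lines. MIXL1 was 93.1 units in GCT44 and under the floor in the other lines. FOXH1, a cofactor of SMAD2, was 2420 units in GCT44 and 365 to 913 elsewhere, 2.65-fold above GCT27.

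**Figure D3:**
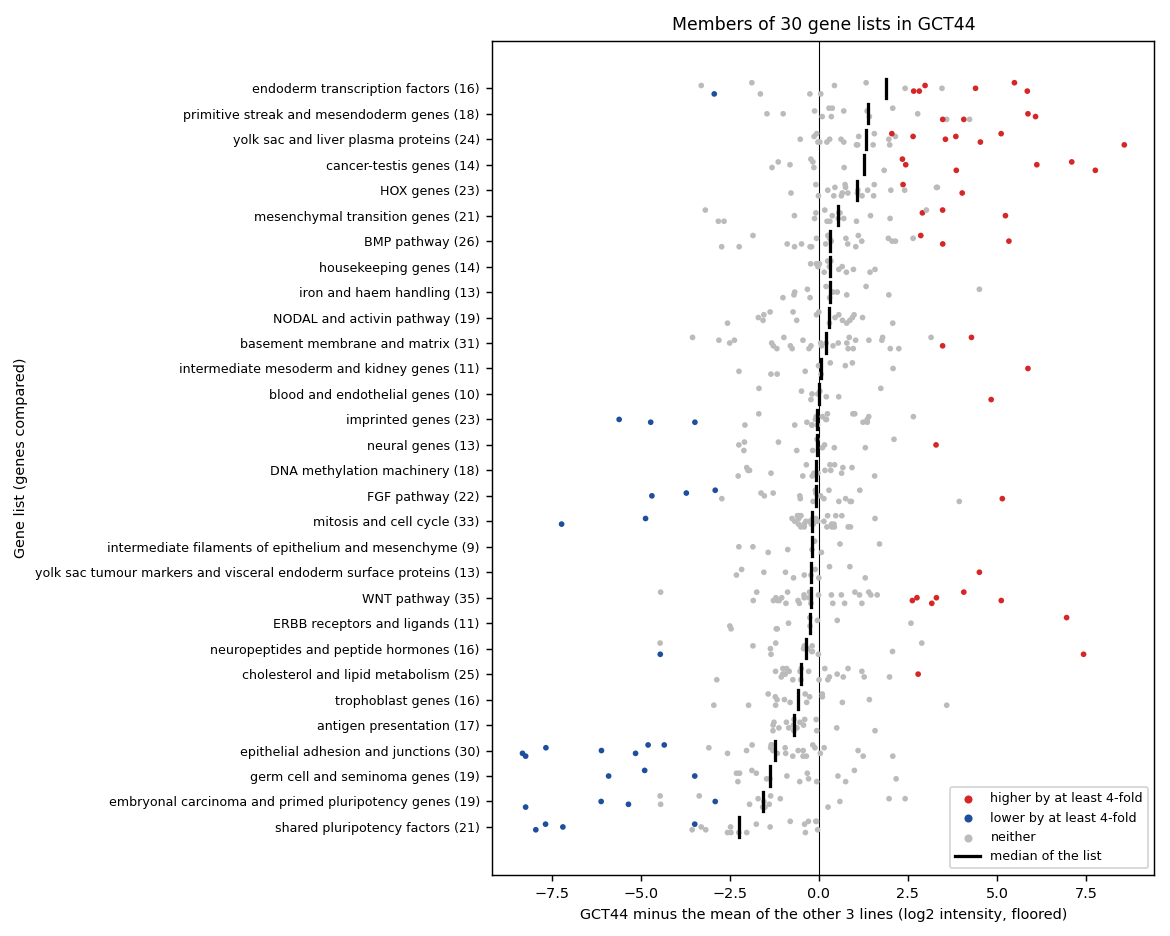
Difference between GCT44 and the mean of the other 3 lines (log2) for every compared member of the gene lists, 1 row per list and 1 array per line. Members past the 4-fold rule are coloured by direction and the bar is the median of the list; shared pluripotency factors lie at a median of -2.25 and endoderm factors at 1.87.

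Signalling genes differed as single members rather than as whole pathways. In the WNT list, 6 of 35 compared genes were higher and none was lower, while the median difference was -0.22. The 6 were the receptors FZD4 and LGR5, the secreted R-spondin RSPO3, the target factor SP5 and the antagonists DKK1 and DKK4. DKK4, which blocks the LRP5 and LRP6 coreceptors, was under the floor in the other lines and 2660 units in GCT44, at least 34.8-fold higher. SP5, a direct target of WNT signalling, measured 98.2, 91.6, 167 and 1031. LGR5, a receptor for R-spondins, measured 48.8, 69.0, 84.5 and 488, but a second probe set reached 7052 units in GCT44 with a gap of 6.53 on the log2 scale. The gap of FZD4, 2693 units in GCT44, fell to 1.66 with the median over probe sets. WNT5A was 164 units in GCT44 and 241 to 1360 elsewhere, and WNT5B was under the floor in GCT44 and TCam-2. Outside the list, the receptor FZD6 was lower in GCT44, at 25.3 units against 1086 to 6260. PRICKLE1, also outside it, was lower too, at 191 units against 1026 to 2673.

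BMP genes gave 3 higher and no lower members among 26, with a median difference of 0.33. BMP2, a ligand, measured 236, 190, 20.6 and 6081 units, 25.8-fold above TCam-2, and its second probe set had a gap of 5.09 on the log2 scale. BMP5 was 555 units in GCT44 and under the floor in the other lines. BMP4, at 1344 units, lay 1.69-fold above NT2D1. Of 19 NODAL and activin genes none passed in either direction. NODAL measured 81.1, 128, 864 and 80.5 units and its antagonist LEFTY1 48.3, 115, 1255 and 25.2, so both were bright in GCT27 and near or under the floor in GCT44. GDF3 measured 543 units in GCT44, nearest to TCam-2 (334) and below NT2D1 (5915) and GCT27 (16726).

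FGF genes split. FGFR2, a receptor of epithelial cells, measured 2353, 1609, 2015 and 38.9 units, at least 21.1-fold lower. Its second bright probe set was also under the floor in GCT44, with a gap of 5.16, although the probe set used when those matching several transcripts were left out gave -1.19. FGF2 measured 368, 1953, 1423 and 67.4 units, and FGF4, a ligand made by pluripotent cells, 344, 696, 791 and 73.1; both missed the rule with the median over probe sets, at 1.97 and 0.10. FLRT3, a membrane protein that promotes FGF signalling, was 10273 units in GCT44 and 109 to 1303 elsewhere. Together 1 member was higher and 3 were lower among 22, with a median difference of -0.09.

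Single signalling genes held some of the widest distances of all. GRP, gastrin-releasing peptide, measured 10.0, 3.31, 35.2 and 13190 units, at least 173-fold higher. It was the higher member among 16 compared neuropeptides and hormones, of which ADM was lower, at 681 units against 9383 to 24489. ERBB4, a neuregulin receptor, measured 8.21, 7.50, 4.74 and 9485 units, at least 124-fold higher. Its second bright probe set had a gap of 3.05, and the median over its 4 probe sets, 2 of them dim in every line, gave 1.37. The other receptors were not highest in GCT44: EGFR was 80.6 units in GCT44 against 172 to 2579, and ERBB2 and ERBB3 lay between 0.338-fold and 0.481-fold of the brightest of the other lines. EPHA3, an ephrin receptor, measured 2.63, 19.1, 47.9 and 4069 units, with a gap of 1.75 when probe sets were combined. TRPA1, a cation channel, measured 207, 66.8, 133 and 10505 units. PIK3R5, a regulatory subunit of PI3-kinase gamma, measured 46.4, 40.1, 202 and 8731, and both of its further probe sets passed the rule. CCDC81 reached 5228 units against at most 104. FAM86B2-DT, a non-coding transcript, reached 29597 against at most 814, but another probe set of it went the other way, with a gap of -1.14.

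Enzymes of amine and retinoid metabolism, grouped after their values were seen, gave 6 higher and 1 lower gene among 12. CYP26A1, which degrades retinoic acid, measured 47.4, 453, 724 and 15576 units, 21.5-fold above GCT27. ALDH1A1, which makes retinoic acid, measured 2.17, 8.36, 4.83 and 2271, at least 29.7-fold higher. ALDH1A3, another enzyme for the same step, was the lower one, at 6.35 units against 403 to 930, and its gap was 0.00 when probe sets were combined. The other probe set of ALDH1A3 was under the floor in every line, at 3.81 to 23.4 units. DDC, the decarboxylase of dopamine and serotonin synthesis, was 2148 units against at most 85.5. HDC, which makes histamine, was 707 against at most 84.9. MAOA and MAOB, the monoamine oxidases, measured 3895 and 601 units in GCT44 and at most 363 and 126 elsewhere.

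Cancer-testis genes, normally silent outside the germ line and placenta, included 6 members higher in GCT44. Of 36 listed only 14 were compared, because 12 lacked a probe set of their own and 10 were below the filter. No member was 4-fold above the floor in every other line, so none could have been counted as lower. MAGEA6 measured 64.2, 32.5, 368 and 28020 units, MAGEA12 293 at most in the other lines and 16409 in GCT44, and MAGEA1 5.55, 5.60, 19.2 and 5310. CTAG2 was 1109 units in GCT44, and its second probe set 11182, against at most 44.3. PAGE1 and PAGE5 were 414 and 388 units and under the floor elsewhere. MAGEA copies are nearly identical, so a probe of 1 may read another, and without probe sets that match several transcripts the median difference of the list turned from 1.27 to -0.20. Without the filter on low values it was 0.00. The group was not uniform: MAGEA4, MAGEC2 and PAGE4 were under the floor in GCT44, and XAGE2 was 145 units against 2832 in TCam-2.

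Of 21 compared pluripotency factors, 4 were lower in GCT44, none was higher and 17 were neither. Over the genes 4-fold above the floor in every other line the share lower in GCT44 was 3.60%, and 9 of the 21 were that bright. The median difference was -2.25, and no member lay above the mean of the other lines. The 4 were NANOG, L1TD1, DPPA4 and PRDM14. NANOG, a core factor of pluripotency, measured 22390, 13322, 22428 and 2.29 units. It was at least 174-fold lower, and the second probe set of NANOG had a gap of 4.14 on the log2 scale. L1TD1, an RNA-binding protein of pluripotent cells, measured 21217, 12713, 14635 and 77.5 units, 164-fold lower. DPPA4 measured 6084, 10399, 21768 and 12.5, and PRDM14, a factor of germ cells and naive pluripotency, 473, 656, 2014 and 12.5. GCT44 was at or near the floor for these 4 genes, and all 3 other lines were well above it.

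LIN28A and LIN28B, RNA-binding proteins of early embryonic cells, kept their signal. LIN28A measured 14828, 30531, 21142 and 17340 units and LIN28B 7084, 7936, 5621 and 5245. The probe sets assigned to the POU5F1 copies POU5F1B, POU5F1P4 and POU5F1P3 measured 7748 to 17980 units in the other lines and 6.99 to 14.6 in GCT44, at least 101-fold to 186-fold lower. These copies are nearly identical to their parent gene, and the signal cannot be assigned to 1 of them. APELA, a peptide hormone of early embryonic cells chosen here after its values were seen, measured 5319, 2297, 4240 and 23.3 units. TCam-2 weighed on the list: without it the median difference was -1.47.

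The NANOG promoter is shown because it was the promoter of a lower gene that held the composite POU5F1-SOX2 motif. The run is chr12:7789152-7789401 on the plus strand of GRCh38.p14, with the match, on the reverse strand, in capitals 120 to 107 bases before the start.
NANOG: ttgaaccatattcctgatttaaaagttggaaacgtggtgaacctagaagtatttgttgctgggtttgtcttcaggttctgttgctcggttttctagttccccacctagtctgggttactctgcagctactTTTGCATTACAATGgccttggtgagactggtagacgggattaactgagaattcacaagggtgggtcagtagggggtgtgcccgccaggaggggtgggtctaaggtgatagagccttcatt
This motif was in 2 of all 27305 promoters (0.00732%), both of them of compared genes, and in 0 of 197 promoters of higher genes and 1 of 171 of lower genes. SOX2, the partner factor of that motif, measured 391, 20575, 18309 and 6.41 units. TCam-2 was the nearest line, at least 5.12-fold above GCT44, and with the median over 4 probe sets the gap was 0.00 because TCam-2 then fell to the floor as well.

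Embryonal carcinoma genes gave 4 lower and no higher members among 19, with a median difference of -1.58, or -2.92 with no floor. CD24, a surface glycoprotein, measured 15790, 26123, 29376 and 8.61 units, and 5 further probe sets had gaps of 4.19 to 7.75. USP44, a deubiquitinase, measured 539, 5223, 10648 and 2.80. DNMT3B, a de novo DNA methyltransferase, was alike in GCT44 (2377 units) and TCam-2 (2841) and higher in NT2D1 (11360.0) and GCT27 (23760.4). ZIC2 was 8268 units in GCT44, near NT2D1 (11603) and GCT27 (10584), and 3.10 in TCam-2. Without TCam-2 the median difference of this list was -2.32. Germ cell and seminoma genes gave 3 lower members among 19: TFAP2C, PDPN and PRDM14. TFAP2C, a factor of primordial germ cells, measured 20557, 1901, 2442 and 72.3 units. PDPN, the antigen of the D2-40 antibody used for seminoma, measured 2831, 1790, 2294 and 9.58. KIT was of similar size in all lines, 1144 to 1375 units against 1771 in GCT44. The median difference of this list was -1.38. It was -0.36 without TCam-2, -0.55 with the median over probe sets and -0.72 with no filter on low values.

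Of 34 listed epithelial adhesion genes 30 were compared, 7 were lower in GCT44, none was higher and 23 were neither, with a median difference of -1.23 and of -0.57 without TCam-2. CD9, a tetraspanin, measured 29672, 16542, 29639 and 8.06 units, at least 216-fold lower and the widest distance of any lower gene. EPCAM, an epithelial adhesion molecule, measured 28656, 5782, 22390 and 69.2, at least 75.7-fold lower. CDH1, E-cadherin, measured 17193, 580, 14524 and 5.77. NT2D1 was the nearest line for both, so the distance from TCam-2 and GCT27 was wider. The gap of CDH1 was 0.00 with the median over its probe sets. The other probe set of CDH1 measured 112, 3.55, 57.4 and 11.3 units, too dim to show a 4-fold fall. CDH3, P-cadherin, which lies next to CDH1 on chromosome 16, measured 2190, 332, 2168 and 7.41. ESRP1, an epithelial splicing factor, measured 6862, 386, 3598 and 7.39, SPINT2, a protease inhibitor, 6203, 710, 4491 and 66.3, and CLDN10, a claudin, 607, 2964, 2060 and 74.3. With combined probe sets ESRP1 and CLDN10 missed the rule, at 1.496 and 0.86.

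Of 9 compared intermediate filament genes none passed the rule in either direction. KRT19 measured 8870 units in GCT44 and 815 to 7731 elsewhere, KRT8 2600 against 2123 to 10085, and KRT18 6724 against 17953 to 34792. VIM, the filament of mesenchyme, was 24249 units in GCT44 and 12341 to 19561 elsewhere. Among 21 mesenchymal genes 3 were higher and none was lower. CDH2, N-cadherin, measured 2541, 3364, 2711 and 21387 units, and its second probe set had a gap of 3.93. LOX, which crosslinks collagen, measured 47.2, 107, 34.2 and 3226. FN1, fibronectin, measured 3049, 4085, 1432 and 29040, and 3 more probe sets had gaps of 3.03 to 3.18. A probe set of FN1 that matches no other transcript gave 0.99, but at 201 units in GCT44 it was too dim to pass. ZEB1 was 1584 units in GCT44, 1.85-fold above NT2D1, and ZEB2 was lower than in NT2D1 (232 against 1125 units). Matrix genes gave 2 higher members, FN1 and COL2A1, among 31; COL2A1 measured 260, 1426, 45.3 and 5939 units, and 1.74 on the log2 scale separated it from NT2D1 after scaling to the spiked-in controls. The laminin LAMA1, at 2671 units, was 1.44-fold above NT2D1.

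Surface markers of the visceral endoderm were mixed. VIL1, villin of the brush border, measured 6.27, 40.3, 25.4 and 1738 units, at least 22.7-fold higher, and was the member past the rule among 13. DAB2 and LRP2, partners in endocytosis, measured 108 and 136 units in GCT44 and were higher in NT2D1 (436) and GCT27 (1606), respectively. The median difference of these markers was -0.22.

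Metallothioneins are small cysteine-rich proteins that bind zinc and copper, and were grouped after their values were seen. Of 9 compared, 7 were lower in GCT44 and none was higher, and the median difference was -4.58, or -1.19 without probe sets that match several transcripts. Their summed level was 2134 units in GCT44 and 37235 to 79283 in the other lines. MT2A measured 7509, 16744, 18028 and 575 units, MT1E 4572, 9152, 6193 and 263, and MT1H 5524, 6029, 7084 and 172. MT1HL1 measured 7286, 14957, 15347 and 44.6. The MT1 genes are close copies on chromosome 16, and a probe set of 1 may read its neighbours. MT2A and MT1E, and MT1F, MT1G, MT1H and MT1X, stood in 2 runs of adjacent lower genes.

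Of 40 compared histone genes, 13 were higher in GCT44, none was lower and 27 were neither. The median difference was 1.20, or 0.33 with no filter on low values, and 11 members were 4-fold above the floor in every other line. Their summed level was 161224 units in GCT44 and 48761 to 52222 in the other lines, which were thus close to each other. H1-2, a linker histone, measured 987, 188, 926 and 24137 units, H2BC12 2437, 979, 1456 and 32510, and H2AC6 686, 433, 550 and 8142. H4C8 was 1301 units against at most 116. Histone copies share sequence, so single members are uncertain. Most histone messages lack a poly(A) tail, and how the RNA was primed for labelling is not given in the sources used here. H2AZ1, a variant made independently of replication, was 27501 units against 21143 to 25069. The group was defined with these values known.

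The H2BC12 promoter is shown because the octamer ATGCAAAT, a known element of H2B promoters, was shared by several higher histone genes. The run is chr6:27146859-27147108 on the minus strand of GRCh38.p14, with the match, on the reverse strand, in capitals 46 to 39 bases before the start.
H2BC12: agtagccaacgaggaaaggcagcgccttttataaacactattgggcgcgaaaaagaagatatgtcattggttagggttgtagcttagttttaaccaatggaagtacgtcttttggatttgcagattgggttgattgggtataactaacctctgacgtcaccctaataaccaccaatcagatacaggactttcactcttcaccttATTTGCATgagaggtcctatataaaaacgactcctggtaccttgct
The octamer was in 12 of 197 promoters of higher genes (6.09%), 5 of 171 of lower genes (2.92%), 157 of those of compared genes (1.32%) and 454 of all promoters (1.66%). Histone genes made up 9 of those 12. The letters TATAAA were in 36 promoters of higher genes (18.3%), 17 of lower genes (9.94%), 6.41% of compared genes and 11.1% of all.

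Cell cycle genes were mostly alike in the 4 lines, with 2 lower among 33 and a median difference of -0.19. UBE2C, the ubiquitin-conjugating enzyme of the anaphase-promoting complex, measured 9116, 10697, 15228 and 68.2 units, at least 119-fold lower from its 1 probe set. Other mitotic genes did not follow it: CCNB1 was 10842 units in GCT44 against 7521 to 8501, CDC20 3047 against 2882 to 4445, and UBE2S 3638 against 4969 to 7808. CCND1, cyclin D1, measured 767, 6473, 2224 and 4.66 units, at least 10.0-fold lower. Further lower genes among the 15 widest were GGCT (59.4 units in GCT44, 5370 to 11025 elsewhere), AKAP12 (45.6 against 4589 to 7956), a kinase anchor, ITGA6 (7.35 against 3822 to 12843), a laminin receptor, and PXDN (9.88 against 2958 to 7578), a peroxidase of basement membranes. AKAP12, ITGA6 and PXDN had further probe sets past the rule, with gaps of up to 4.18, 3.30 and 3.91.

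HOX genes gave 2 higher members, HOXB4 and HOXD1, among 23, none of which was 4-fold above the floor in every other line. Their median difference was 1.08, or 1.86 with no floor, with 20 of 23 above the mean of the other lines. HOXD1 measured 108, 98.0, 367 and 2556 units and HOXB4 393 units in GCT44 and under the floor elsewhere. The gap of HOXD1 was 1.60 with combined probe sets. Of 23 imprinted genes, CDKN1C, PHLDA2 and ZDBF2 were lower and none was higher. ZDBF2 measured 3096, 2159, 1223 and 58.3 units. CDKN1C and PHLDA2, growth inhibitors of the same imprinted region, measured 6.65 and 6.96 units in GCT44 and at least 322 and 1478 elsewhere; with the median over probe sets their gaps were 0.35 and 0.00.

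Markers of other tissues gave few differences. None of 16 trophoblast genes passed, and their median difference was -0.60, or 0.0 without TCam-2. CGA, GCM1 and TFAP2A were brightest in TCam-2 and under the floor in GCT44, but 5 of the 16 lay above the mean of the other lines. The summed level of this list was 21796 units in GCT44, against 23018 in TCam-2, 6030 in NT2D1 and 4136 in GCT27. Of 13 neural genes FABP7 was higher, at 2699 units against at most 529, while NES was 252 units, below the other lines (438 to 2259). Of 10 blood and endothelial genes CD3D was higher, at 2803 units against at most 161; CD3E of the same receptor complex was 88.4 units. DGAT2, the last enzyme of triglyceride synthesis, was the higher one of 25 lipid genes, at 823 units against at most 153, or 1.96 on the log2 scale after scaling to the spiked-in controls. None of the compared members of the lists of 18 DNA methylation genes, 17 antigen presentation genes, 13 iron genes or 14 housekeeping genes passed. Genes of antigen presentation outside that list did pass, in both directions. HLA-DPB1 (6.13 units in GCT44, 627 to 997 elsewhere), HLA-DPA1 (44.9 against 374 to 753) and MICA (63.8 against 336 to 616) were lower. HLA-DQB1 was higher, at 797 units against 126 to 177. ACTB measured 22603 to 30043 units in the other lines and 29854 in GCT44, and the housekeeping median was 0.32. Over all 30 lists, 43 of 540 compared genes were higher and 25 lower, against 1.70% and 1.69% of all compared genes; the lists were drawn up with earlier results of these data known.

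Further probe sets of a called gene were often dim. The 253 higher genes had 277 further probe sets. Of these 93 passed the rule, 77 had a gap of 0 with GCT44 and the nearest line both at the floor, and 8 had a gap below 0. Below 0 means that GCT44 was not beyond the nearest line, and it may still lie among the other lines. The 246 lower genes had 394 further probe sets, of which 61 passed, 180 had a gap of 0 and 19 had a gap below 0. USP45 had the lowest such gap among the higher genes, -2.12, and was named after its values were seen. Of the 253 higher genes, 141 had another probe set and 81 had one bright enough to pass; 93 of their 113 bright probe sets (82.3%) passed the rule, 18 had gaps from 1 to 2, and 2 were under 1. Of 246 lower genes, 60 had a bright further probe set; 61 of 82 (74.4%) passed, 17 had gaps from 1 to 2 and 4 were under 1. A bright probe set is one that reached 4-fold above the floor in GCT44 for the higher genes and in every other line for the lower genes, so agreement was made easier by that choice. At least 1 such probe set passed for 71 higher and 46 lower genes, and none for 10 and 14.

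**Figure D4:**
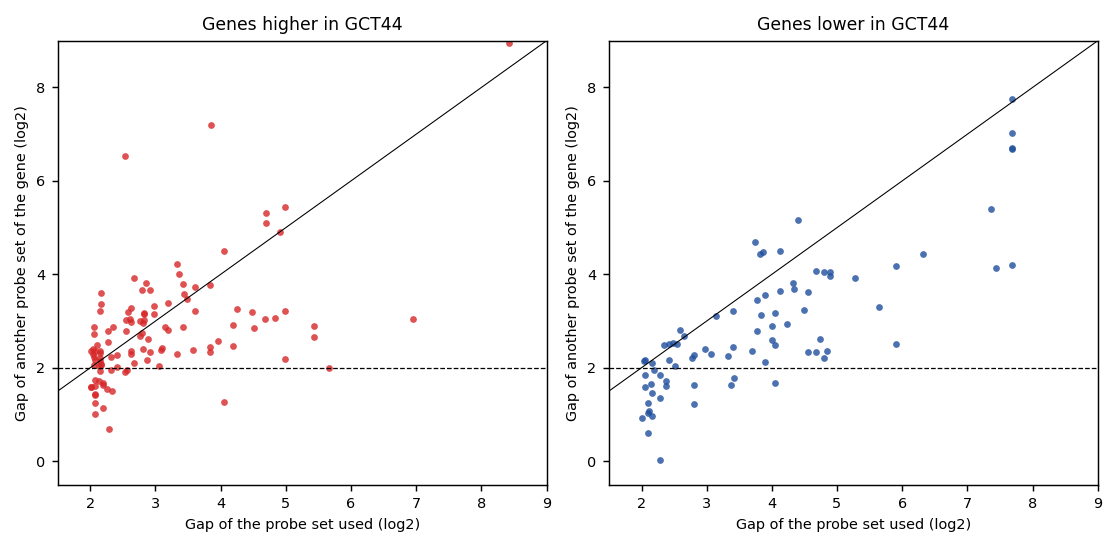
Gap between GCT44 and the nearest other line (log2) for the further bright probe sets of the higher (left) and lower (right) genes, against the gap of the probe set used for the gene. The dashed line is the rule of 2 and the solid line equality. On the left 93 of 113 points pass the rule, and on the right 61 of 82. The wider gaps lie on both sides of equality, as for APOA2 (8.43, further probe set 8.96) and ERBB4 (6.96, further probe set 3.05).

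Among the autosomes and the X chromosome, lower genes were most frequent on chromosome 8, 26 of 545 compared (4.77%), and higher genes on chromosome 18, 16 of 227 (7.05%). On chromosome 8 the first 8 compared genes from the end of the short arm were all under the floor in GCT44. TDRP measured 1643, 1136, 2219 and 7.56 units, ERICH1 1650, 1360, 1219 and 38.4, CLN8 2463, 817, 472 and 7.78, and ARHGEF10 1926, 1543, 1934 and 36.4. These 4 passed the rule, from at least 6.18-fold to at least 20.2-fold lower. ZNF596, FBXO25, CLN8-AS1 and KBTBD11 were also under the floor in GCT44, from 7.17 to 24.9 units and 3.29 for CLN8-AS1, but in another line they were too dim to show a 4-fold distance. The ninth gene, CSMD1, was 123 units in GCT44, as in TCam-2. Gene order is that of the current reference table, and this stretch was picked after the values were seen.

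**Figure D5:**
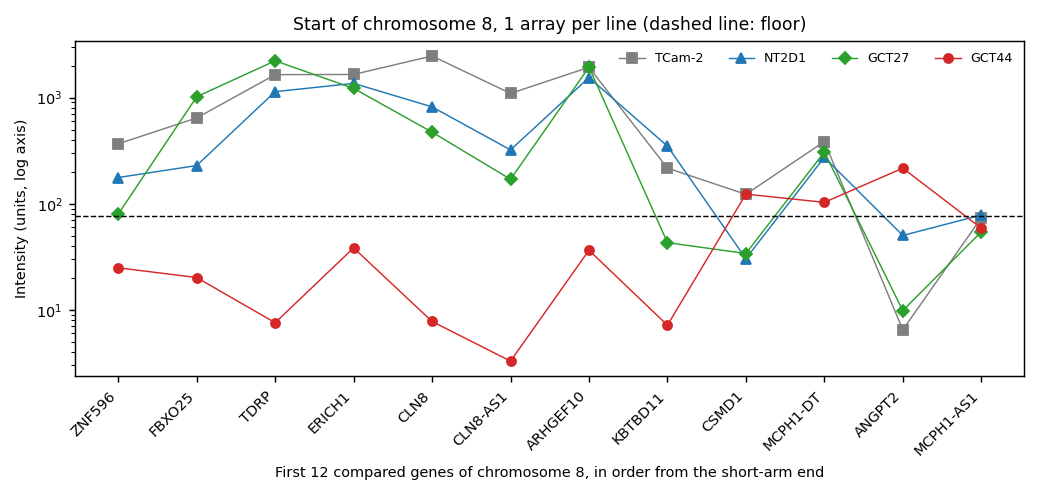
Intensity (units, log axis) in the 4 lines, 1 array each, for the first 12 compared genes of chromosome 8 in order from the end of the short arm, evenly spaced. The dashed line is the floor of 76.4 units; GCT44 lies under it for the first 8 genes and at 123 units for CSMD1.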

How the data were processed

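The authors deposited linear intensities of 54675 probe sets on 4 arrays; per the submitters' processing notes RMA was used, without a version. RMA gives log2 values, so these are not its usual output, and their mean after trimming 2% from each end was 500.1 on every array. The genome build is not given in the sources used here.

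Of the probe sets, 41097 were listed with 1 gene, 1801 with several and 11777 were not listed; 99.9% of the gene symbols were found in the reference table by gene ID. log2 was taken here. For each gene the probe set of highest mean log2 value, among those listed with that gene alone, was kept. Groups follow the labels. The members and the gene lists were chosen with earlier results of these data known, and the histone, metallothionein, clotting and amine lists, the search for neighbours and the motifs after the values were seen. Named genes are the 15 farthest each way, list members past the rule and up to 4 further members per list. Other names were chosen after their values were seen. Genes of the Y chromosome and XIST were left out of naming, 18 of those compared. The size rule has no error rate. A run on simulated arrays with planted changes checked only the calculation. The simulated lines shared a baseline and differed by small noise, unlike these lines, so it gives the rule no support here. Alternatives were another choice of probe set, filter, floor, scaling, threshold or reference and leaving out each line. Promoters came from RefSeq (GRCh38.p14). Python 3.11.15, numpy 2.4.6, pandas 2.3.3 and matplotlib 3.10.9 were used.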

Additional observations from a re-analysis of the deposited data

Results flagged for a closer look

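Probe sets outside the gene comparison also separated GCT44 from the other lines. Among 1309 probe sets that were assigned to several genes and reached the floor in a line, 34 (2.60%) were at least 4-fold higher and 12 (0.917%) at least 4-fold lower in GCT44 than in every other line. Among 5328 such probe sets with no listed gene, 60 (1.13%) were higher and 22 (0.413%) lower. These probe sets were not named or analysed further, and lines without replicates give no group in which a single array could be tested as far from the rest.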

How the results depend on the processing

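No paired analysis was possible because the labels carry no replicate numbers and each line has 1 array. With thresholds of 1 and 3 on the log2 scale, 726 and 105 genes were higher and 664 and 111 lower. Against the mean of the other lines, 464 were higher and 610 lower. Leaving out 1 of the other lines gave 312 to 343 higher and 325 to 418 lower genes, 418 without TCam-2 and 384 without NT2D1. With no floor 344 were higher and 713 lower, with a floor at the unspiked controls 512 were lower, and with the median over probe sets 135. GCT44 against TCam-2 gave 1142 higher and 1574 lower genes with no floor and 1058 and 1414 with the lower floor. Against NT2D1 these were 1021 and 1448, and 939 and 1323, and the median over probe sets gave 460 lower. Against GCT27 they were 1024 and 1596, and 981 and 1444, and scaling to the spiked-in controls gave 405 higher and 1242 lower. The median difference of the cancer-testis list turned to -0.20 without probe sets that match several transcripts. Removing the filter, or tightening it to 252 units, moves list medians but changes no count by construction, since every gene past the rule has a line 4-fold above the floor. Choosing the probe set by its mean intensity, an alternative added after seeing the data, gave 276 higher and 254 lower genes. Of 110 named genes, 81 passed in every alternative that gave a value and 29 missed the rule in at least 1. No named gene could be lost with no floor, a lower floor, the mean of the other lines or a line left out. These settings can only keep or widen a gap. Without probe sets that match several transcripts, 69 named genes passed, 5 missed the rule and the rest gave no value. The count of 81 is therefore not a measure of how firm the differences are. The counts of higher and lower genes could likewise only stay or rise under those 4 kinds of setting, which kept all 253 higher and 252 lower genes. The cause of the other shifts was not tested.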
